A study of Mus musculus with 3 samples.

Results

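Kruppel-like factors are zinc finger proteins that bind CACCC and GC-rich boxes in promoters and enhancers, and most act as activators or repressors through the partners they recruit. In the vessel wall Klf2 and Klf4 are known as the factors that laminar flow switches on in endothelium. Klf5 and Klf6 are known from vascular injury and growth, Klf10 from TGF-beta signalling, and Klf9 and Klf15 from glucocorticoid signalling. The data here cover 8 of these genes (Klf2, Klf3, Klf4, Klf5, Klf6, Klf9, Klf10 and Klf15). They were taken as every non-control probe whose gene name in the array files was 1 of the 8, which gave 14 of the 41174 probes and 8 of the 19757 named genes.

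The study compared primary aortic endothelial cells of Pim1-/- mice with those of wild-type mice, both on the FVB/N strain, both 12 weeks old and both labelled female. Pim1 encodes a serine/threonine kinase. Cells were plated on gelatine, detached with a trypsin-like enzyme 24 hours after seeding, and used for total RNA. Amplified RNA was hybridised to 3 two-colour arrays of 60-base probes, each with knockout RNA in Cy5 and wild-type RNA in Cy3. All 3 arrays had the same dye orientation, so a dye effect on a probe and an effect of genotype cannot be told apart. The labels call the arrays biological replicates but do not say how many animals or cultures stood behind each channel, so the p-values cover no more than the spread among the 3 arrays, which may be technical. The labels name neither flow over the cells nor a deletion limited to 1 cell type, and protein was not measured.

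Some measurements on the whole arrays bear on every value below. Pim1 itself was lower in the knockout by 0.97, 1.16 and 0.99 on the log2 scale, but was above background in the knockout on all 3 arrays, and whether its probe lies in the deleted part is not given in the sources used here. The sex-linked genes differed between channels that carry the same label: the Y-linked Eif2s3y was at least 28.2-fold higher in the knockout, against a wild-type channel that was not well above background on any array. Sex of the cells and genotype cannot be told apart. Of 22 endothelial markers, 5 were not well above background in either channel on any array, and these included the junction proteins Pecam1 and Cdh5. The summed level of the 10 tested endothelial markers was 69700 to 83490 in the knockout and 33470 to 40390 in the wild type, in normalised intensity units, with 3 higher and 1 lower. A sum is weighted towards bright probes such as that of Cd34, which rose 2.12-fold; the median log2 ratio of these 10 markers was 0.01, and 6 of them did not pass. For the 12 tested fibroblast markers the sums were 572200 to 601900 and 514800 to 554900, with 7 higher and 1 lower and a median log2 ratio of 1.00. The 10 tested smooth muscle and pericyte markers summed to 56710 to 59490 and 55800 to 67080, with 2 higher and 3 lower and a median of -0.54. The 12 tested mesothelial and epithelial markers summed to 12880 to 16160 in the knockout and 80540 to 103400 in the wild type, and 8 fell and 1 rose, with a median of -1.38. For the 6 tested macrophage and leukocyte markers the sums were 2231 to 2561 and 3536 to 4850, and 2 fell, with a median of -0.17. Over all 13461 tested genes, 11.4% were lower and 8.68% higher by the same test. Fap, Rgs5, Epcam, Muc16 and 5 of the macrophage and leukocyte markers were not well above background on any array. In bulk RNA, fewer cells of a type and less RNA per cell cannot be told apart. The part of these cell type markers in the results for the Kruppel-like factors was not tested.

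The sequences that matter for reading the results are the probes at which Klf2, Klf3 and Klf5 were measured, because the probes of a gene did not always give the same ratio. The array files place them on mouse build mm8. Klf2 had an upstream probe at chr8:75248851-75248910 and a downstream probe that begins 1376 bases later, at chr8:75250227-75250286, both on the plus strand. The upstream probe was 78.3% G and C and the downstream probe 43.3%; of the downstream probe the first 30 of its 60 bases are shown.
Klf2 upstream probe: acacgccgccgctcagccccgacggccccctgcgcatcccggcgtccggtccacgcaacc
Klf2 downstream probe, first 30 bases: tgtatataagactatgaccgattgtatttc
The Klf3 probe that gave the gene value is placed at chr5:65101464-65102044, a span of 581 bases for 60 bases of probe, so it bridges a splice junction and reads spliced RNA. The Klf5 probe that gave the gene value is likewise placed across 9733 bases, at chr14:98186571-98196303. Its capitals mark bases 38 to 52, the codons of the short linker that joins neighbouring zinc fingers, so this probe reads the part of the message that encodes the DNA-binding region. Those 15 bases occurred in 1 of the 41174 probes on the array.
Klf3 junction probe: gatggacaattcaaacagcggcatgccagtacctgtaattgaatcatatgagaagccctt
Klf5 junction probe: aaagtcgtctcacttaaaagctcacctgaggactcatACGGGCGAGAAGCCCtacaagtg

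Across the 8 genes, Klf5, Klf6 and Klf3 were lower in the knockout and the other 5 did not pass the test. A gene was given the value of its brightest tested probe, and a gene passed where limma's adjusted p was under 0.05. Over all 13461 tested genes 20.1% passed, 11.4% lower and 8.68% higher, against which the count of 3 of 8, all lower, is to be read. The median log2 ratio of knockout over wild type was -0.12 for the 8 genes and -0.02 for all tested genes. By probe, 5 of 14 passed and all 5 were lower, while 17.1% of all tested probes passed, 9.53% lower and 7.62% higher. In every channel of every array, 12 of the 14 probes were well above background. The sign was the same on all arrays in 3 of the 8 genes, which were the 3 that passed; over all tested genes it was the same in 54.1%.

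**Figure D1:**
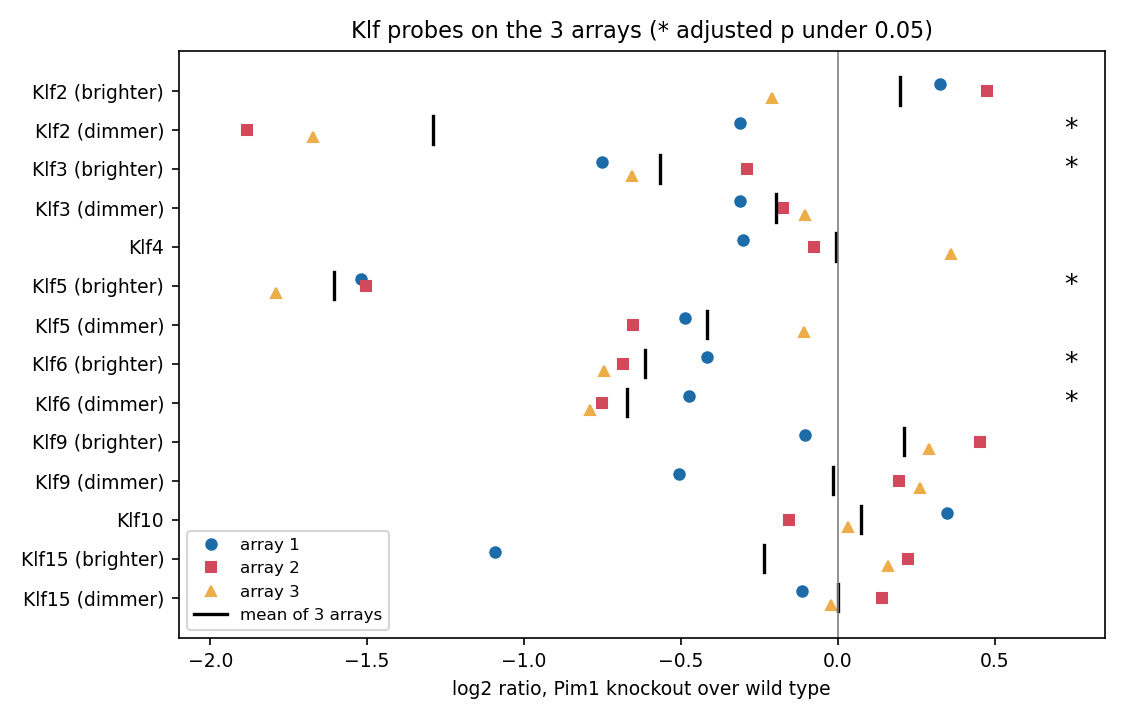
The plot shows the log2 ratio of knockout over wild type (x axis) for each of the 14 probes of the 8 genes, with 1 point per array and a bar at the mean of the 3 arrays; a star marks an adjusted p under 0.05 in limma. Both Klf6 probes and the brighter Klf5 probe lie below 0 on every array, and the 2 Klf2 probes lie on opposite sides of 0 in their means.

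Klf2, the transcription factor that flow induces in endothelium and that raises anticoagulant and vasodilator genes, gave different answers at its 2 probes. At the upstream probe, which gave the gene value, normalised log2 intensity was 16.26, 16.50 and 15.91 in the knockout on arrays 1, 2 and 3, and 15.93, 16.03 and 16.12 in the wild type. The channels overlapped: the knockout was above the wild type on arrays 1 and 2 and below it on array 3. The log2 ratio averaged 0.20 ± 0.36 (SD, n = 3 arrays), with a 95% interval of -0.19 to 0.58 and an adjusted p of 0.449 in limma. A change of either sign within that interval is compatible with the values. With median centring the mean at this probe was 0.58 (limma adjusted p = 0.0676). Leaving out 1 array gave 0.058 to 0.40, and the probe did not pass in any of these settings.

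At the downstream Klf2 probe the knockout channel read 11.13, 10.75 and 10.84 and the wild-type channel 11.44, 12.63 and 12.52. Every knockout value was below every wild-type value, and the gap was narrow on array 1 alone, where the wild type was low. The log2 ratios were -0.31, -1.88 and -1.67, a mean of -1.29 ± 0.85 (SD, n = 3 arrays), which is 2.44-fold lower in the knockout with an adjusted p of 0.0458 in limma. This call was lost without array 2 (-0.99, adjusted p = 0.213) and without array 3 (-1.10, adjusted p = 0.233). Calls over all tested genes fell as well, from 2709 to 716 and 617. Without array 1, where 5571 of 13172 tested genes passed, the call at this probe held (-1.78). It was also lost with the scanner software's own ratio (adjusted p = 0.0529) and with median centring (adjusted p = 0.0845). Scaling between arrays (adjusted p = 0.0529) and no filter on dim probes (adjusted p = 0.101) lost it too.

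The gap between the probes of Klf2, upstream minus downstream, was 0.64, 2.36 and 1.46 log2 units on the 3 arrays. Its mean of 1.49 ± 0.86 (SD, n = 3 arrays) was at percentile 98.9 by size among the 4011 genes with 2 tested probes, whose median gap was 0.16. The mean over both probes was -0.55, with an adjusted p of 0.124. These data therefore give no single direction for Klf2, and which transcript each probe reads was not tested.

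Klf4, a second flow-responsive factor and a regulator of smooth muscle and macrophage state, was measured by 1 probe at chr4:55549061-55549120 on the minus strand (mm8). Normalised log2 intensity was 15.09, 14.94 and 15.10 in the knockout and 15.39, 15.01 and 14.74 in the wild type. The knockout values were nearly level while the wild-type values spread, and the ratio ran from below 0 on array 1 to above 0 on array 3. Its log2 ratio averaged -0.01 ± 0.34 (SD, n = 3 arrays; 95% interval -0.38 to 0.36; limma adjusted p = 0.984). The sign of this mean turned positive with median centring (0.31), array weights (0.12) and scaling between arrays (0.03), none of which brought it past the threshold.

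**Figure D2:**
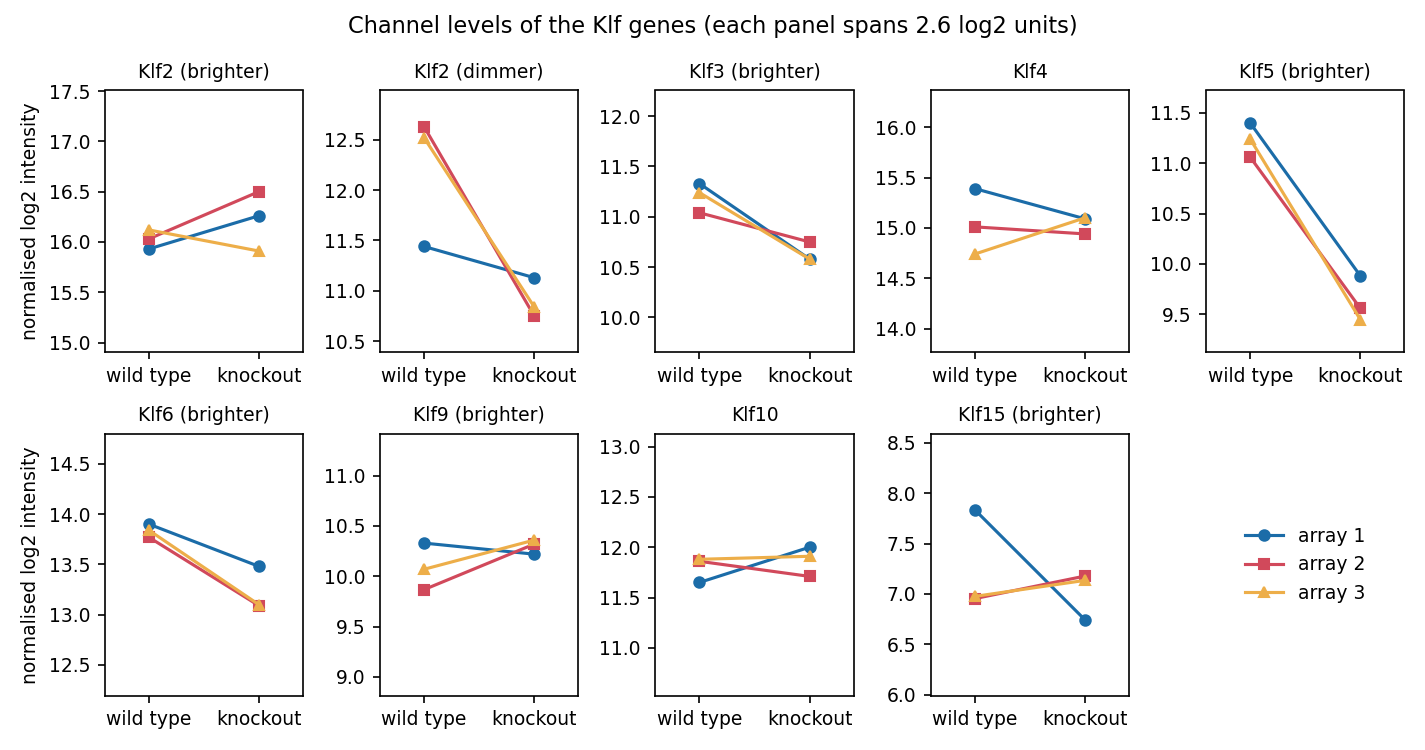
Each panel shows normalised log2 intensity (y axis) in the wild-type and knockout channels of 1 probe, with a line joining the channels of each array, and with the same span of log2 units in every panel. All 3 lines fall for Klf5, Klf6, Klf3 and the dimmer Klf2 probe. Lines both rise and fall for the brighter Klf2 probe, Klf4, Klf9, Klf10 and Klf15.

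Upstream of Klf2 and Klf4 lies a kinase cascade (Map3k2 and Map3k3, Map2k5, Mapk7) that ends in MEF2 factors, which class II histone deacetylases restrain. Of 12 such genes 11 were tested, 3 fell and 8 did not pass. Over all 13461 tested genes 11.4% were lower and 8.68% higher. The median log2 ratio of the 11 genes was -0.16, which median centring turned to 0.02. Mef2c, a MEF2 factor of muscle and vessels, had log2 ratios of -1.77, -1.95 and -1.77 and was 3.56-fold lower (mean -1.83 ± 0.10 SD, n = 3 arrays; limma adjusted p = 0.000541). Mef2a averaged -1.38 ± 0.17 (SD; adjusted p = 0.00165), with every array below -1. Map3k2, a kinase at the top of the cascade, averaged -0.72 ± 0.14 (SD; adjusted p = 0.0108), but did not pass with median centring (0.0863), without array 2 (0.103) or without array 3 (0.102), and the mean over its probes was -0.40 (0.0432). The kinases below it did not pass: Mapk7 averaged -0.09 (adjusted p = 0.557) and Map2k5 -0.12 (adjusted p = 0.539). Mef2d, at -0.16 (adjusted p = 0.315), did not pass either; these last 3 were singled out after their values were seen.

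The Klf2 promoter is shown because 2 MEF2 factors changed. In RefSeq's GRCm38.p6, the 250 bases before the Klf2 start (chr8:72318812-72319061, plus strand) held 1 match to the MEF2 consensus, set in capitals, at 118 to 109 bases before the start. The consensus is its own reverse complement, so both strands were covered, and its match did not overlap the 1 CACCC match of this window. A match was present in 959 of 32851 promoter windows of the same length (2.92%) and in 1 of the 6 genes of this group with a window in the table (Klf2, Klf3, Klf4, Klf6, Klf9 and Klf15).
Klf2 promoter: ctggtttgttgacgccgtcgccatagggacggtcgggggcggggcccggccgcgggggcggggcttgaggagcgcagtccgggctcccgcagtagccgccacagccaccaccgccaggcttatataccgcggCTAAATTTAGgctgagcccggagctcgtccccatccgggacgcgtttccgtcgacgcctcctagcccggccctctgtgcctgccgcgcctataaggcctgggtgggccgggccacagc
The match describes the letters only; binding was not measured, and the Klf2 probes themselves gave no single direction.

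Endothelial genes known to respond to Klf2 or Klf4 moved in both directions. Of 26 tested genes, 6 rose, 7 fell and 13 did not pass, with a median log2 ratio of -0.15. Without array 2, and likewise without array 3, 2 rose and 4 fell of 24 tested. Over all tested genes, 225 rose and 491 fell of 13074 without array 2, and 175 rose and 442 fell of 13310 without array 3. With all arrays these counts were 1168 and 1541 of 13461. Icam1, a leukocyte adhesion molecule, had log2 ratios of -3.08, -1.92 and -1.94 and was 4.97-fold lower (mean -2.31 ± 0.66 SD, n = 3 arrays; limma adjusted p = 0.00450). Its mean over all probes was -1.48, with an adjusted p of 0.0112. Vcam1, an adhesion molecule that Klf2 is known to restrain, moved the opposite way and was 3.88-fold higher (mean 1.96 ± 0.25 SD; adjusted p = 0.000929). Angpt2, a vessel-destabilising ligand, averaged -1.84 ± 0.73 (SD; adjusted p = 0.0121) and did not pass without array 3 (adjusted p = 0.0649). The genes most often used as readouts of Klf2 were singled out after their values were seen. Thbd, the anticoagulant receptor thrombomodulin, was 2.57-fold higher (mean 1.36 ± 0.64 SD; adjusted p = 0.0199), and did not pass without array 2 (1.57, 0.0677) or array 3 (1.53, 0.0932). Nos3, the endothelial nitric oxide synthase, averaged 0.18 ± 0.17 (adjusted p = 0.324). Its signal was dim, with a mean log2 intensity of 6.47, and the wild type was above background on no more than 2 of the 3 arrays, which limits this ratio. For Edn1, the vasoconstrictor endothelin, the ratios were 0.17, -1.25 and -1.02 (adjusted p = 0.156), so array 1 differed in sign from both others.

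Klf5, a growth-associated activator of smooth muscle and epithelial cells, had the lowest log2 ratio of the 8 genes. Normalised log2 intensity at its junction probe was 9.88, 9.56 and 9.45 in the knockout and 11.40, 11.06 and 11.24 in the wild type. The channels were far apart on every array and did not overlap. With log2 ratios of -1.52, -1.50 and -1.79, Klf5 was 3.04-fold lower in the knockout (mean -1.61 ± 0.16 SD, n = 3 arrays; 95% interval -1.87 to -1.34; limma adjusted p = 0.000992). It was the 1 gene of the 8 that also passed at an adjusted p under 0.01. Leaving out each array in turn gave -1.66 to -1.51, and the call held each time.

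The second Klf5 probe, at chr14:98188052-98188111 (mm8), lies inside the interval that the junction probe spans. The 60 bases of the junction probe cover only a small part of those 9733 bases. The array files also assign the second probe to a different transcript record. Whether both probes read the same message was not tested. It was dim, above background in the knockout on 1 array and in the wild type on 2. Its log2 ratios were -0.49, -0.65 and -0.11, lower in the knockout on every array but not past the threshold (mean -0.42 ± 0.28 SD; limma adjusted p = 0.0922). The gap to the junction probe averaged -1.19 and was at percentile 98.1 by size among genes with 2 tested probes. Its size depends on the treatment of background. With a normexp offset of 0 the second probe was at -0.98 (limma adjusted p = 0.0430), and with the scanner software's ratio at -1.93 (0.0433). The junction probe was at -1.68 in both settings. The second probe also passed with an intensity trend and robust variances (0.0384), but not with no background subtraction (-0.50, 0.0686). Epithelial cells are known to express Klf5, and of the 12 tested mesothelial and epithelial markers 8 were lower and 1 higher, with a median log2 ratio of -1.38 over the list, with means of -4.12 for Krt19 and -3.41 for Msln, and with Epcam and Muc16 not well above background on any array. Their part in the Klf5 result was not tested.

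Klf6, an injury-induced activator of TGF-beta pathway genes in endothelium, was lower at both of its probes. At chr13:5869371-5869430 (mm8) normalised log2 intensity was 13.48, 13.09 and 13.10 in the knockout and 13.90, 13.77 and 13.84 in the wild type. The wild-type values were close together, and all knockout values lay below them. The log2 ratios were -0.42, -0.69 and -0.74, which is 1.53-fold lower (mean -0.62 ± 0.17 SD, n = 3 arrays; limma adjusted p = 0.0195). The other probe, at chr13:5866706-5866765, gave -0.48, -0.75 and -0.79 and 1.59-fold lower (mean -0.67 ± 0.17 SD; adjusted p = 0.0151). These probes differed by 0.06 ± 0.01 log2 units on average, so the 2 Klf6 probes moved together array by array. The change was small, and neither probe passed with median centring (-0.38, adjusted p = 0.222 and -0.49, 0.134). Neither passed without array 2 (-0.58, 0.148 and -0.63, 0.128) or without array 3 (-0.55, 0.156 and -0.61, 0.135). Calls over all tested genes fell as well, from 2709 to 716 without array 2 and 617 without array 3. Both probes passed without array 1, where 5571 of 13172 tested genes passed.

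Of 24 tested genes known as targets of Klf5 or Klf6, 4 rose, 9 fell and 11 did not pass; the median log2 ratio was -0.13, which median centring turned to 0.11. Without array 2, 2 rose and 5 fell, and without array 3, 2 rose and 4 fell. The calls over all tested genes also dropped, from 2709 to 716 without array 2 and 617 without array 3. Fabp4, a fatty acid binding protein of adipocytes and capillary endothelium, had log2 ratios of -4.00, -3.03 and -3.22 and was 10.7-fold lower (mean -3.42 ± 0.51 SD, n = 3 arrays; limma adjusted p = 0.000711). Pparg, the nuclear receptor of adipocyte differentiation that Klf5 is known to help induce, had log2 ratios of -2.12, -1.75 and -2.13 and was 4.00-fold lower (adjusted p = 0.000711). Eng, a TGF-beta co-receptor that Klf6 is known to activate, moved the other way, with log2 ratios of 2.61, 2.67 and 2.24, and was 5.68-fold higher (mean 2.51 ± 0.24 SD; adjusted p = 0.000440). Eng is also 1 of the endothelial markers, of which 3 of 10 tested rose and 1 fell. Within this list the TGF-beta co-receptor and the adipocyte genes thus moved in opposite directions.

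Klf3, a repressor that recruits CtBP corepressors, was modestly lower. At its junction probe normalised log2 intensity was 10.58, 10.75 and 10.58 in the knockout and 11.33, 11.04 and 11.24 in the wild type. The channels did not overlap, and they were closest on array 2. The log2 ratios of -0.75, -0.29 and -0.66 averaged -0.57 ± 0.24 (SD, n = 3 arrays), which is 1.48-fold lower with an adjusted p of 0.0353 in limma. The second Klf3 probe, at chr5:65108439-65108498 (mm8), had the same sign on every array but a smaller size, with ratios of -0.31, -0.18 and -0.10 (mean -0.20 ± 0.11 SD; adjusted p = 0.231). With both probes averaged, Klf3 was at -0.38 and did not pass (adjusted p = 0.0597). The call was also lost with the scanner software's ratio, with median centring and with no filter on dim probes. It was lost too without array 2 (-0.70, adjusted p = 0.0858) and without array 3 (-0.52, adjusted p = 0.213). Calls over all tested genes fell as well in these 2 settings, from 2709 to 716 and 617. Without array 1, where 5571 of 13172 tested genes passed, the Klf3 call held.

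The Klf3 promoter is shown because it holds the motif of the family itself. Its 250 bases before the start (RefSeq GRCm38.p6, chr5:64803271-64803520, plus strand) held 5 matches to CACCC, counted on both strands and set in capitals, where GGGTG is the same box on the other strand; no MEF2 consensus match was found there. At least 5 matches were present in 219 of 32851 windows of that length (0.667%), and at least 1 match in 52% of them. Klf2, Klf9 and Klf15 had 1 match each and Klf4 and Klf6 had none.
Klf3 promoter: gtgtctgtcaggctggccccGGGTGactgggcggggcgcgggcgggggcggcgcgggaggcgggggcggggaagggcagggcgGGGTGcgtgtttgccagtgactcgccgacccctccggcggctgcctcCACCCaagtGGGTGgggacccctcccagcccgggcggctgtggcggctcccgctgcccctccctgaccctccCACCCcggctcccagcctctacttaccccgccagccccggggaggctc
The matches are a description of the letters, and no binding of a Kruppel-like factor was measured here.

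Among 15 tested corepressors and coactivators that Kruppel-like factors recruit, 1 rose and 14 did not pass, with a median log2 ratio of 0.08 (0.28 with median centring). The gene that rose was Ctbp2, the CtBP corepressor bound by Klf3, at 0.75, 0.78 and 0.84 on the 3 arrays (mean 0.79 ± 0.05 SD, n = 3 arrays; 1.73-fold; limma adjusted p = 0.00578). Without array 2 or array 3 it kept its size, at 0.79 and 0.76, but did not pass (adjusted p = 0.0672 and 0.0783). Of 14 tested ubiquitin ligases and deubiquitinases that act on Kruppel-like factors, 1 rose, 4 fell and 9 did not pass, around a median of -0.0036 (0.10 with median centring). Only 1 gene of this list, lower, passed without array 2, and 0 passed without array 3 in limma, where 1 was higher and 5 lower at an unadjusted p under 0.05. Among all tested genes, 716 of 13074 passed without array 2 and 617 of 13310 without array 3, against 2709 of 13461 with all arrays. Nedd4, a ligase, averaged -1.01 ± 0.23 (SD, n = 3 arrays; adjusted p = 0.00637) and did not pass without array 3 (0.0753); its mean over all probes was -0.58. Smurf2 averaged -0.73 (adjusted p = 0.0333) and Wwp1, a ligase of Klf2 and Klf5, -0.56 (adjusted p = 0.0219). Both of these calls were lost with median centring (0.116 and 0.193), with the scanner software's ratio (0.0609 and 0.0598), and without array 2 or array 3, and that of Smurf2 also with no filter on dim probes (0.0609) and with the mean of its probes (-0.48, 0.0623).

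Klf9, a repressor that glucocorticoid induces in many tissues, was measured at chr19:23231944-23232003 (mm8). Its log2 ratios were -0.11, 0.45 and 0.29, so array 1 lay below 0 and the other arrays above it. The mean of 0.21 ± 0.29 (SD, n = 3 arrays) did not pass (limma adjusted p = 0.347). Without array 1 the mean was 0.37 and passed, with an adjusted p of 0.0122 in limma over the 2 arrays left, so the call at this probe depends on array 1. In that setting 5571 of 13172 tested genes passed, against 2709 of 13461 with all arrays. At the second probe, chr19:23232745-23232804, the ratios were -0.51, 0.20 and 0.26, again below 0 on array 1 alone, with a mean of -0.02 ± 0.43 (SD, limma adjusted p = 0.964). Without array 1 the second probe was at 0.23 and did not pass (adjusted p = 0.126).

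Klf15, a glucocorticoid-induced regulator of metabolism that restrains smooth muscle activation, was dim at both probes. At chr6:90440517-90440576 (mm8) normalised log2 intensity was 6.74, 7.18 and 7.13 in the knockout and 7.83, 6.95 and 6.97 in the wild type. The single high value was the wild-type channel of array 1, and the log2 ratios were -1.09, 0.22 and 0.16. Their mean of -0.24 ± 0.74 (SD, n = 3 arrays; limma adjusted p = 0.616) turned to 0.19 without array 1. The other Klf15 probe, at chr6:90439701-90439760, was above background in the knockout on 1 array and gave -0.12, 0.14 and -0.02, around 0.

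Klf9 and Klf15 were 2 of 8 genes whose sign on array 1 differed from both other arrays, a share close to the 23.6% of all tested genes for which this held, so it is no result about this pair. Across probes, which are not replicates, the ratios of array 1 correlated with arrays 2 and 3 at 0.681 and 0.699, while those of arrays 2 and 3 correlated at 0.905. Of 20 tested glucocorticoid-responsive genes 8 rose, 2 fell and 10 did not pass, with a median log2 ratio of 0.05. The count of genes that rose was 2 without array 2 and 0 without array 3 in limma, where 8 were still higher at an unadjusted p under 0.05 in each case. Over all tested genes the count that rose likewise went from 1168 to 225 without array 2 and 175 without array 3. Mt2, a metallothionein, had log2 ratios of 2.03, 3.80 and 3.28 and was 8.20-fold higher (mean 3.04 ± 0.91 SD, n = 3 arrays; limma adjusted p = 0.00471). It did not pass without array 3 (adjusted p = 0.0572). The related Mt1 averaged 1.76 ± 0.85 (SD; adjusted p = 0.0197) and did not pass without array 2 (0.0969) or array 3 (0.137). Dusp1, a phosphatase that glucocorticoid induces, fell on every array, at -1.71, -1.83 and -1.77, and was 3.41-fold lower (mean -1.77 ± 0.06 SD; adjusted p = 0.000516).

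Klf10, an early TGF-beta response gene that restrains growth, was measured by 1 probe at chr15:38239377-38239436 on the minus strand (mm8). Normalised log2 intensity was 12.00, 11.71 and 11.91 in the knockout and 11.65, 11.86 and 11.88 in the wild type. The channels overlapped, and the sign differed between arrays, with log2 ratios of 0.35, -0.16 and 0.03. The mean was 0.07 ± 0.26 (SD, n = 3 arrays), with a 95% interval of -0.24 to 0.39 and an adjusted p of 0.743 in limma.

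Genes of the TGF-beta response moved in both directions. Of 22 tested genes 3 rose, 7 fell and 12 did not pass, with a median log2 ratio of -0.32 (-0.09 with median centring). Without array 1, 4 rose and 13 fell. Without array 2, 1 rose and 5 fell, and without array 3, 1 rose and 4 fell. Over all tested genes 2792 rose and 2779 fell without array 1 (21.1% lower). The same counts were 225 and 491 without array 2 (3.76% lower) and 175 and 442 without array 3 (3.32% lower). With all arrays 11.4% of tested genes were lower. Tgfb2, a TGF-beta ligand, had log2 ratios of -2.60, -2.56 and -2.52 and was 5.90-fold lower (mean -2.56 ± 0.04 SD, n = 3 arrays; limma adjusted p = 0.000265). The ligand Tgfb3 was 4.08-fold lower (mean -2.03 ± 0.52 SD; adjusted p = 0.00354). Tgfbi, a matrix protein that TGF-beta induces, averaged -2.44 ± 1.00 (SD; adjusted p = 0.0121) and did not pass without array 3 (adjusted p = 0.0634). Klf11, a close relative of Klf10 and likewise TGF-beta-responsive, had ratios of -0.38, -0.16 and 0.01 (mean -0.18; adjusted p = 0.353).

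**Figure D3:**
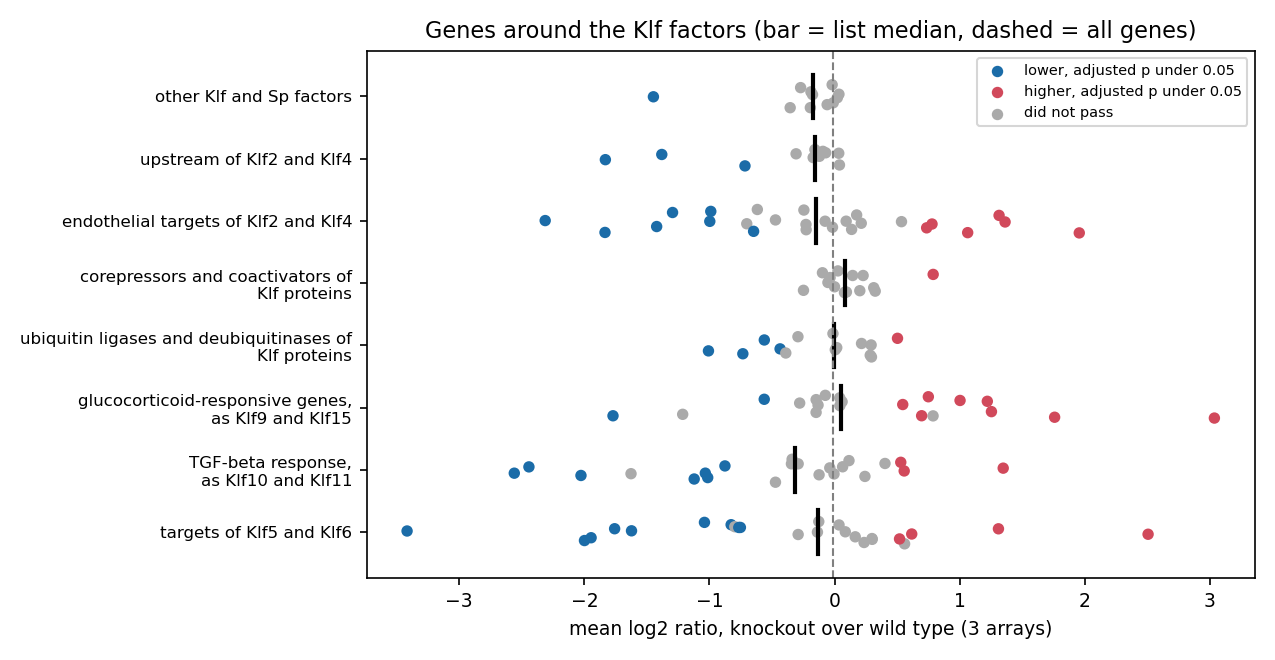
Each point is a tested gene of a list around the Kruppel-like factors, placed by its mean log2 ratio over 3 arrays (x axis); black bars are list medians and the dashed line is the median of all tested genes. Points that passed the test lie on both sides of 0 in 5 of the 8 lists, and in the values as normalised by loess list medians run from -0.32 for the TGF-beta response to 0.08 for corepressors and coactivators.

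Within the wider family of Klf and Sp factors, Klf8 stood beside Klf5. Of 17 other family members on the array 11 were tested, 1 fell and 10 did not pass, with a median log2 ratio of -0.18. Over all tested genes 11.4% were lower, so a count of 1 of 11 is no result about the family. Klf8, an X-linked repressor linked to cell motility, had log2 ratios of -1.53, -1.58 and -1.23 and was 2.73-fold lower (mean -1.45 ± 0.19 SD, n = 3 arrays; limma adjusted p = 0.00160). It was above background in the knockout on 2 of 3 arrays, and its value moved with the treatment of background, to -2.32 with a normexp offset of 0 and to -3.19 with the scanner software's ratio. Under a filter that asks for detection in every channel of every array, Klf8 was not tested. For this X-linked gene too, sex of the cells and genotype cannot be told apart. Klf13 averaged -0.35 ± 0.34 (adjusted p = 0.174) and Klf7 -0.27 ± 0.16 (adjusted p = 0.148), and Sp1 and Sp3, the broadly expressed relatives that bind the same boxes, were at -0.06 and 0.04.

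**Figure D4:**
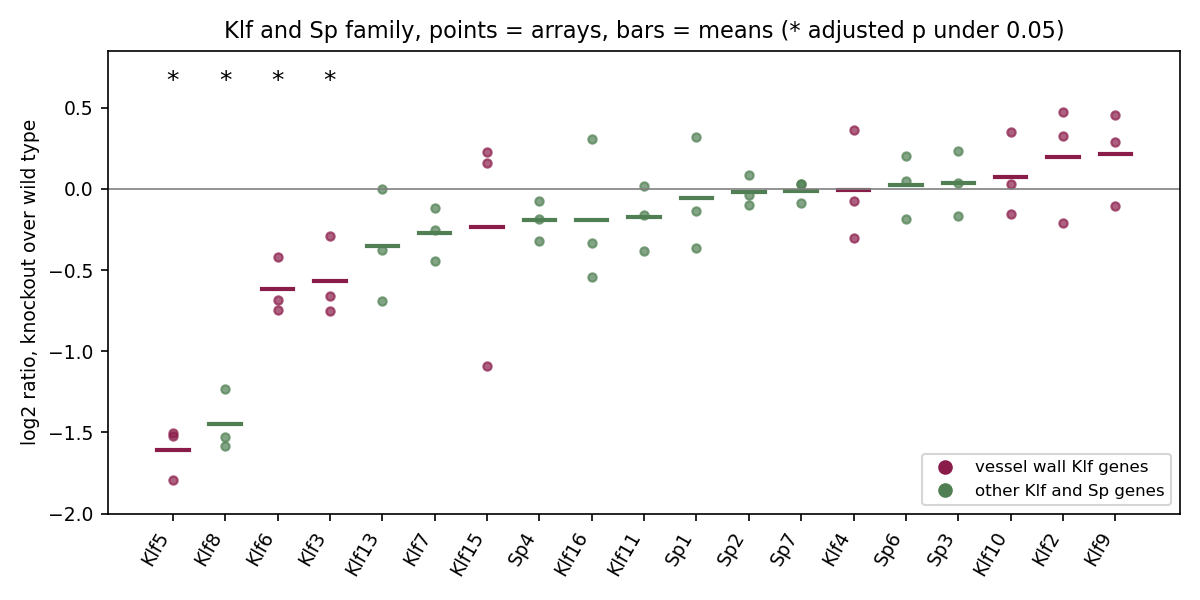
Log2 ratios of knockout over wild type (y axis) are shown for the 8 vessel wall genes and 11 other tested Klf and Sp genes, ordered by mean; points are single arrays, bars are means and a star marks an adjusted p under 0.05 in limma. Klf5 and Klf8 lie between -1.79 and -1.23 on every array, Klf6 and Klf3 average -0.62 and -0.57, and the arrays of Klf15 are the most spread among the 8 genes.

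The genes whose ratios lay nearest to those of the lowest and the highest of the 3 genes that fell were found by root mean square distance over the 3 arrays, among all 13461 tested genes. For Klf5 they were Lims2 (0.09 log2 units), Ccdc141 (0.10) and Ccl5 (0.10), with mean log2 ratios of -1.66, -1.61 and -1.55. For Klf3 they were Dynlrb1 (0.06), Borcs7 (0.07) and Atg101 (0.07), with means of -0.55, -0.54 and -0.51. With only 3 arrays such nearness describes the ratios and nothing more.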

How the data were processed

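The authors read the arrays with Agilent Feature Extraction 9.5.3.1 (per the submitters' processing notes and the file headers), and the deposited files hold mean and median pixel intensity, local background intensity and processed intensity in 2 channels for 45018 spots per array. Also deposited are the software's log10 ratio of Cy5 over Cy3 and a value table with the same log10 ratio (largest difference 0).

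Mean intensities were background-corrected with normexp (offset 50) and loess-normalised within each array in limma 3.58.1 (R 4.3.3). The 1639 control spots and outlier-flagged spots (121, 140 and 136) had weight 0 and were left out afterwards. Saturated spots numbered 0. Testing asked for a signal well above background in either channel on 2 or more arrays (25078 probes). Channel levels came from Aquantile normalisation after loess. The mean log2 ratio was tested against 0 with lmFit and eBayes, Benjamini-Hochberg adjusted over all tested probes, threshold 0.05; ± is the SD over 3 arrays. Ratios of dim probes are pulled towards 0 by the offset, and the number of arrays limits the precision. A gene not well above background in a channel on every array was given as at least a fold, from the lowest signal well above background.

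Probes were named through RefSeq: 24375 by accession, 115 by another accession, 6234 by symbol and 2391 by synonym, with 8059 unnamed; 253 antisense probes were left out. Coordinates of probes are those of the array files (mm8). Promoter and probe letters came from the RefSeq table (GRCm38.p6) and the array files. Named were the 8 genes, Pim1, up to 3 changed genes of largest size and equal sign on all arrays from each list, and the 3 genes nearest to the highest and lowest gene that passed. Any other gene named with a value (Thbd, Nos3, Edn1, Mapk7, Map2k5, Mef2d, Klf7, Klf11, Klf13, Sp1, Sp3, Cd34, Krt19, Msln, Eif2s3y, Ddx3y, Kdm5d, Xist) was singled out after its values were seen. The genes and lists were chosen with earlier results of these data known. Code was tested on simulated data. The alternatives were background correction, normalisation, the dim-probe filter, flagged spots, variance model, probe choice, threshold and leaving out each array.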

Additional observations from a re-analysis of the deposited data

How the results depend on the processing

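Klf5 stayed lower and past the threshold under every alternative run except its other probe. The genes past the threshold numbered 2709, 4324 with array weights, 960 at an adjusted p under 0.01 and 617 to 5571 with 1 array left out (5571 without array 1). Of the 8 genes 3 passed; 1 did with the scanner software's ratio, with median centring and at an adjusted p under 0.01, and 1 to 4 with 1 array left out. Median centring also changed the share of higher among all genes called, from 43.1% to 55.6%. Klf3 lost its call with the software's ratio (-0.55, adjusted p = 0.0823), median centring (-0.43, 0.105), no dim-probe filter (-0.57, 0.0513) and the mean of probes (-0.38, 0.0597); Klf6 with the software's ratio (-0.61, 0.0504) and median centring (-0.38, 0.222). Klf4 changed sign with median centring (0.31), scaling (0.030) and array weights (0.12), Klf15 with array weights (0.031) and Klf2 with the mean of probes (-0.55). Using each gene's other probe, chosen after seeing the data, gave Klf2 -1.29, Klf3 -0.20, Klf5 -0.42, Klf9 -0.017 and Klf15 0.000546. Leaving out 1 array gave -0.70 to -0.47 for Klf3, -0.19 to 0.14 for Klf4, -0.71 to -0.55 for Klf6, 0.092 to 0.37 for Klf9, -0.063 to 0.19 for Klf10, -0.47 to 0.19 for Klf15, and 21 to 79 changed genes over the lists (56 of 142 tested with all arrays; 26 and 21 of 140 without array 2 and array 3). With 2 arrays left the test has 1 residual degree of freedom beside the prior. The causes were not tested. Klf15 and the second Klf5 probe lay near background, which limits their ratios. Each array sets 1 knockout RNA against 1 wild-type RNA, so the test on log2 ratios already pairs the channels of an array. The labels give a single group, so no further pairing was made.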
